A study of Brassica rapa with 28 samples.

Results

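The 150 genes described here rose strongly when a single leaf of Brassica rapa was kept in the dark, and were back near their starting level a day after the leaf was uncovered. They were selected on wild-type values alone, from a table of 48826 gene IDs. The limits, 4 in number, applied to CPM, the count of a gene relative to the total of its library. A gene needed a wild-type mean of at least 1 CPM before darkness and of under 200 CPM in darkness. Its wild-type mean at recovery had to lie within 0.5 of the starting mean on the log2(CPM + 1) scale, and the SD over the 4 wild-type dark libraries had to be under 0.7 on that scale. These limits left 14173 genes, and the 150 with the largest rise from the start to darkness were kept.

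A leaf in the dark can no longer fix carbon. As background, darkened leaves are known to draw on stored sugar and then on protein and lipid, and to switch on genes for amino acid breakdown, autophagy and nutrient export, which light and sugar switch off again. Phytochrome B is a red-light receptor. In the light its active form promotes the removal of PIF proteins, transcription factors that build up in darkness and promote shade and dark responses. None of the 48826 IDs matched a name in the RefSeq gene table used here (0 matches), so no role can be given to any single gene below, and genes appear by ID.

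The wild type was the strain R-o-18. The mutant, BrphyB-3, has a changed B. rapa gene for phytochrome B, is labelled with the same strain and stands for 1 mutant line. All plants grew in long days of 16 h light and 8 h dark and were 3 weeks old when sampling began. Each replicate was a pool of leaf punches from 3 plants, taken 5 h after lights on. The pre sample and the 24hr sample came from one leaf that was never covered. The dark sample came from a second leaf wrapped in foil for 72 h, and the recovery sample came from that leaf 24 h after it was unwrapped. Wild-type replicates 3 to 6 (4 pools) and mutant replicates 3 to 5 (3 pools) were each followed through the 4 stages, which gave 28 libraries. Comparisons of dark or recovery with pre or 24hr therefore also cross from one leaf to another. They cross in time as well, since dark was sampled 48 h after 24hr and recovery 24 h after dark. The uncovered leaf was not sampled at those times, so leaf, age and darkness cannot be told apart in them. A lower level in such bulk samples can mean fewer cells of a type or less RNA per cell, which cannot be told apart here.

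Total counts ran from 4928822 to 14159657 per library, with the lowest totals in wild-type dark replicate 4 and wild-type pre replicate 3 (5221760). The mutant libraries ran from 7839529 to 14159657. The level of the phytochrome gene itself was not analysed here, because no ID could be tied to it, and leaf marker genes were not checked for the same reason.

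The rule used the 12 wild-type libraries at pre, dark and recovery, so the wild-type values at those stages are a description and carry no test. The mean of the 150 genes in wild type was 2.93 ± 0.27 (SD, n = 4) at pre, 5.97 ± 0.20 at dark and 3.00 ± 0.19 at recovery, on the log2(CPM + 1) scale. Single genes had wild-type means from 1.01 to 30.9 CPM at pre, with a median of 6.94, and from 11.9 to 190.2 CPM at dark, with a median of 69.2. These were genes of low to moderate level in the lit leaf, which follows from the cap on the dark level and the choice of large rises. The wild-type rise ran from 2.58 to 6.03 log2 units, with a median of 2.85. Together the 150 genes took 0.139% ± 0.0253 (SD, n = 4) of all counts at pre and 1.18% ± 0.147 at dark.

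The edge of the list was not sharp. The last gene kept had a rise of 2.585 and the first gene left out a rise of 2.579. Another 775 genes rose at least as far as the last one kept but failed a limit, 197 of them only the limit on the return and 58 only the cap on the dark level. The nearest of the genes that failed only on the return had a recovery mean 0.502 away from pre, against 0.491 for the farthest gene kept. When the rule was applied again with 1 wild-type pool left out, between 97 and 105 of the 150 genes were kept, the fewest without replicate 3.

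The 12 mutant libraries and the 4 wild-type libraries at 24hr were not used by the rule, and tests below rest on these 16 libraries alone. Mutant pools nonetheless shared part of their deviations with the wild-type pools of the same number, as described further on. A model with 5 group means was fitted to all genes with edgeR's quasi-likelihood method, with Benjamini-Hochberg adjustment of the p-values across the 24072 genes that passed the filter on low counts, all 150 among them. A gene was called at an adjusted p under 0.05.

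In the mutant, the genes chosen in wild type rose in darkness almost without exception. Of the 150 genes, 146 rose from pre to dark and 0 fell, against 26.9% of all genes tested called higher in the same comparison. The fitted log2 change was above 0 in all 150 genes, ran from 0.67 to 6.12 and had a median of 2.82, beside a median of -0.03 over all genes tested. It was at least 2 in 140 genes. Every mutant dark library exceeded every mutant pre library in 144 of the 150 genes, against 32.2% of all genes tested. These calls concern genes whose wild-type rise was large by choice. The next 150 genes by wild-type rise had 147 called higher in the mutant with a median change of 2.33, and the 300 genes after those had 289 called with a median of 2.02, so nearly every gene in these later ranks was called as well.

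The mean of the 150 genes showed the same course pool by pool. Mutant replicates 3, 4 and 5 stood at 2.96, 3.06 and 3.07 at pre and at 5.76, 5.77 and 6.07 at dark, on the log2(CPM + 1) scale. No dark library came near a pre library. The mean rise was 2.84 ± 0.15 (SD, n = 3) in the mutant. The wild-type rise, which the choice of genes had made large, was 3.04 ± 0.35 (SD, n = 4). Within single mutant pools, the dark value was above the pre value for 148 genes in replicate 3, 150 in replicate 4 and 150 in replicate 5, or 149 in replicate 5 with TMM scaling (trimmed mean of M-values). The summed share of the counts went from 0.151% ± 0.00927 (SD, n = 3) at pre to 1.16% ± 0.132 at dark.

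**Figure D1:**
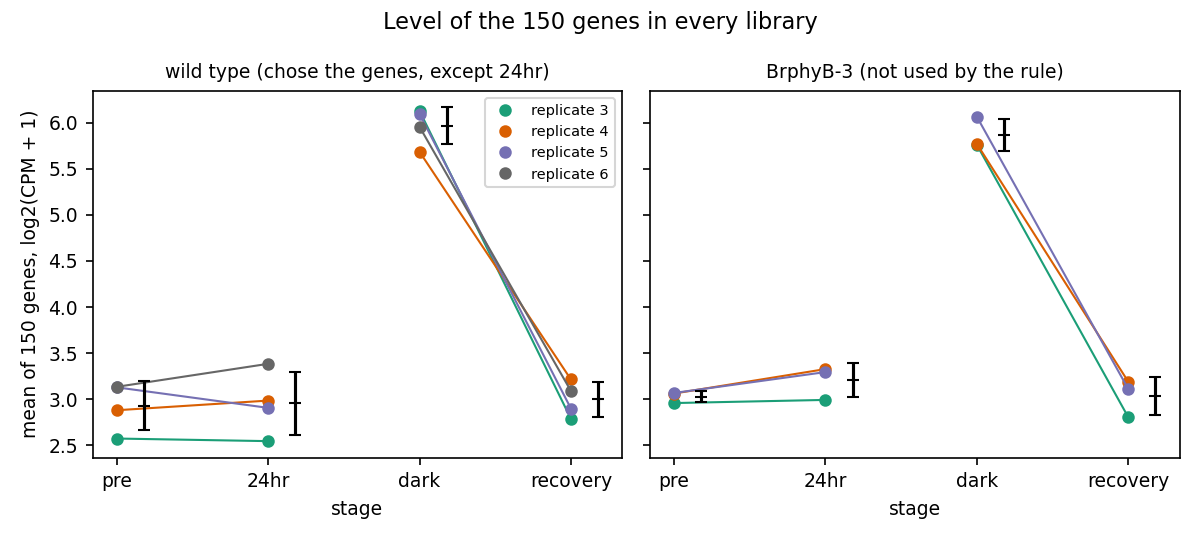
Mean log2(CPM + 1) of the 150 genes (vertical axis) at each stage (horizontal axis) in wild type and BrphyB-3. Points are libraries, lines join samples of 1 leaf of a pool, and black marks show the mean and SD of a group. Dark libraries lie between 5.69 and 6.13 and all others between 2.54 and 3.38.

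Genes with a larger rise in wild type also tended to have a larger rise in the mutant. Across the 150 genes the rises in the 2 genotypes, measured in separate libraries, were correlated with r = 0.707 (Pearson) and rho = 0.596 (Spearman). These are given as a description, since the genes share libraries and the wild-type values were selected. The mutant rise was the smaller in 95 of the 150 genes, a direction that the choice of genes on their wild-type rise favours, and it was not tested. The rule itself asks for a larger fold of low genes, through the added 1 CPM and the cap on the dark level. Its part in the order of the next values was not tested. Grouped by their wild-type level at 24hr, the 31 genes under 3 CPM had a median mutant log2 change of 3.19, the 62 genes from 3 to 10 CPM one of 2.81, and the 57 genes at 10 CPM or more one of 2.72. Levels are not corrected for gene length, so they rank genes by counts only.

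The 2 genes with the largest mutant rise among those that met the limits for naming were BraA09000389 and BraA09005521. BraA09000389 had 0, 0.992 and 0.253 CPM in mutant replicates 3, 4 and 5 at pre, from 0, 12 and 3 counts. At dark it had 16.7, 23.0 and 59.8 CPM, from 185, 210 and 469 counts. The groups did not overlap, and dark replicate 5 was the highest by far. The log2 change was 6.12 (SE 1.51, edgeR quasi-likelihood, adjusted p 0.00333). With so few counts at pre this fitted value depends on the prior count and is no bound, and without mutant replicate 5 it was 5.13 with an adjusted p of 0.0640. Over all alternatives run, its adjusted p lay between 0.000445 and 0.0640. At recovery it had 0, 1.01 and 1.15 CPM, so replicate 3 was without a count at pre, 24hr and recovery alike, and showed the gene only in the dark leaf.

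BraA09005521 had 0.269, 0.414 and 0.760 CPM at pre in the mutant, from 3, 5 and 9 counts. At dark it had 35.3, 23.5 and 46.4 CPM. The groups were far apart, and the log2 change was 6.03 (SE 0.92, edgeR quasi-likelihood, adjusted p 8.68e-05). At recovery it had 0.840, 4.11 and 2.19 CPM, each above every pre library. Its log2 change from pre to recovery was the highest of the 150 genes at 2.30 (SE 0.89), and did not pass (adjusted p 0.251).

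The 2 genes with the largest mutant fall from dark to recovery that were not already named were BraA03005800 and BraA09004513. BraA03005800, which had the largest wild-type rise of all, stood at 178, 190.1 and 282 CPM in mutant replicates 3, 4 and 5 at dark and at 5.13, 1.87 and 10.8 CPM at recovery. All 3 pools fell to a small part of the dark level. The log2 change was -5.07 (SE 0.95, edgeR quasi-likelihood, adjusted p 0.000489). The lit leaf was uneven for this gene. At pre the mutant had 9.42, 0.910 and 33.1 CPM and the wild type 0, 1.09, 10.4 and 1.45 CPM in replicates 3 to 6, with replicate 5 the highest in both genotypes.

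BraA09004513 had 94.8, 52.3 and 138 CPM at dark in the mutant and 2.10, 3.89 and 1.88 CPM at recovery. Its log2 change was -5.04 (SE 0.63, edgeR quasi-likelihood, adjusted p 1.74e-05). Pre libraries, at 9.87, 7.03 and 2.96 CPM, overlapped with the recovery libraries, while the 24hr libraries, at 14.1, 11.04 and 11.2 CPM, lay above them. The log2 change from 24hr to recovery was -2.11 (SE 0.58) and did not pass (adjusted p 0.0681).

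**Figure D2:**
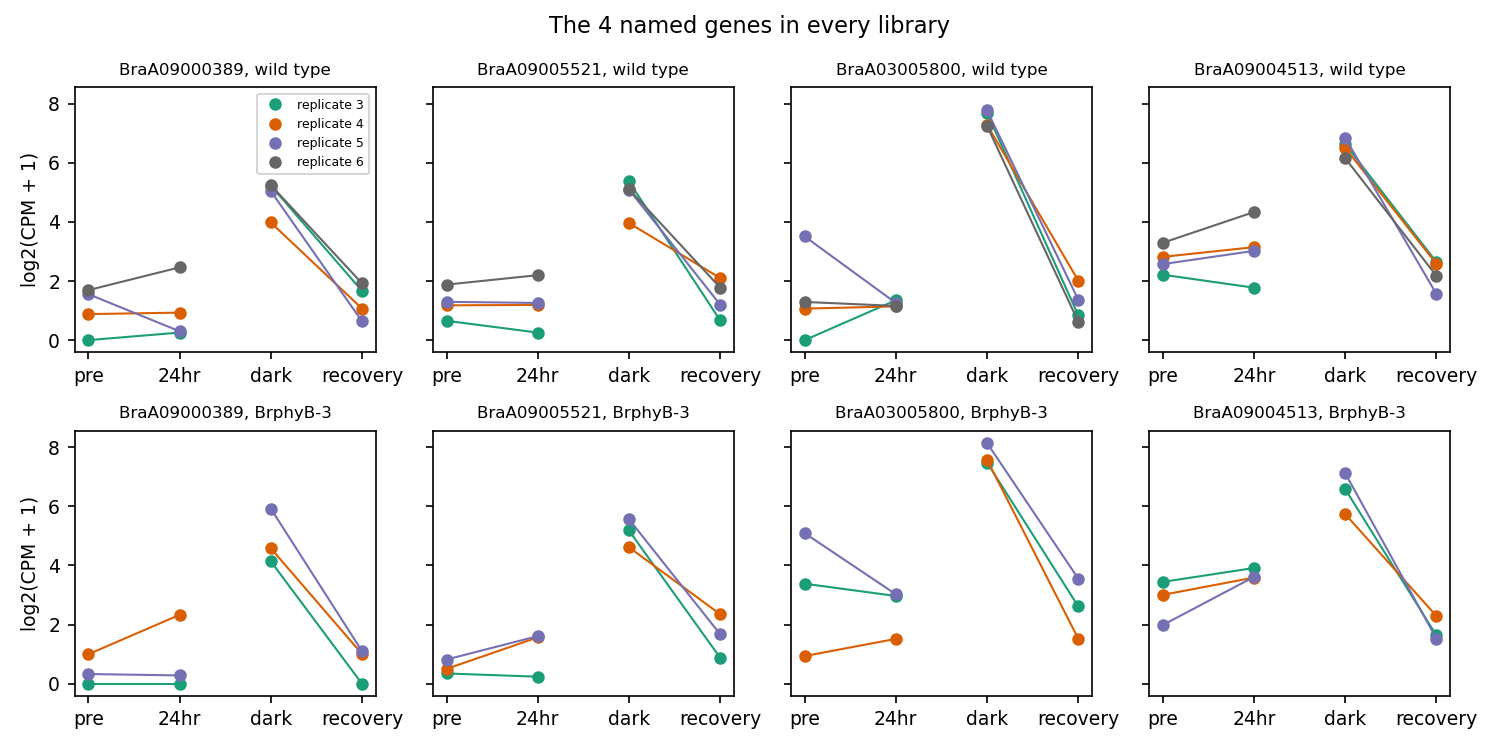
log2(CPM + 1) of the 4 genes named by the rule (vertical axis) at each stage (horizontal axis), wild type above and BrphyB-3 below. Points are libraries and lines join samples of 1 leaf of a pool. Dark libraries stand above all others in every panel.

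There were 4 genes that did not pass in the mutant from pre to dark, and they were named after their values were seen. BraA01001785 had 2.15, 2.89 and 1.35 CPM at pre and 0.361, 19.6 and 3.57 CPM at dark in mutant replicates 3, 4 and 5. Only replicate 4 reached the range of the wild-type dark libraries, which was 15.6 to 34.1 CPM. The mutant log2 change was 1.71 (SE 0.83, adjusted p 0.0942).

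BraA04002958 had 9.24, 28.4 and 18.1 CPM at pre and 21.7, 82.9 and 74.7 CPM at dark in the mutant. Each pool was higher at dark, but the groups overlapped. The log2 change was 1.52 (SE 0.62, adjusted p 0.0505), just short of the threshold. For BraA01000206 and BraA03005720 the log2 changes were 0.67 (SE 0.79, adjusted p 0.485) and 1.15 (SE 0.70, adjusted p 0.177). In both of these genes single pools already stood high in the lit mutant leaf, up to 81.8 CPM for BraA01000206 and 32.0 CPM for BraA03005720 at pre.

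For some genes the mutant dark libraries were less even than the limit on the wild type allowed. The median SD of the 150 genes at dark was not larger in the mutant, at 0.33 against 0.36 in wild type, where the rule had limited it. The SD over the 3 mutant dark libraries was 0.7 or more in 21 of the 150 genes, against 0 in wild type by choice. Replicate 3 was the lowest of the 3 in 14 of these genes and replicate 4 in 7. Over all 150 genes replicate 4 was the lowest in 83 and replicate 5 in 12. These counts are on library totals, and were not worked out with another scaling or over all genes.

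A day after the leaf was uncovered, the genes were lower again in the mutant. From dark to recovery, which compares the same leaf, 146 of the 150 genes fell and 0 rose, against 26.7% of all genes tested called lower. The log2 change ran from -5.36 to -0.40 with a median of -2.78, beside 0.02 over all genes tested. Every dark library exceeded every recovery library in 144 genes, against 33.5% of all genes tested. The 4 genes that did not pass were BraA01000206, BraA01001785 and BraA03005720, which had not passed for the rise either, and BraA03002224. BraA03002224 had 432, 74.1 and 184 CPM at dark in mutant replicates 3, 4 and 5 and 17.98, 90.4 and 48.1 CPM at recovery, so replicate 4 was the higher at recovery. Its log2 change was -2.04 (SE 0.95, edgeR quasi-likelihood, adjusted p 0.0838). BraA03005720 stayed at 33.0, 20.7 and 56.8 CPM at recovery, within the range of its dark values in replicate 5, and its log2 change was -0.40 (SE 0.69, adjusted p 0.648).

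The rule had required a return by recovery of the wild type, and the mutant libraries were not used for it. They were not wholly independent of it either, since same-numbered pools shared deviations at pre and at recovery. Of the 150 genes, 0 were called higher and 0 lower at recovery against pre, where 0.174% of all genes tested were called higher and 0.461% lower, so few calls were to be had. At an unadjusted p under 0.05 there were 17 of the 150 genes and 3440 of the 24072 genes tested. The DESeq2 Wald test called 1 of the 150, which was lower, and 990 of all genes. A miss in this test does not show that a gene was level. The log2 changes had a median of 0.06 and quartiles of -0.26 and 0.34, and ran from -1.61 to 2.30. They lay within 0.5 of 0 in 103 genes, above it in 24 and below it in 23. In the mutant pools taken singly, the share of the rise in the mean of the 150 genes that was reversed at recovery was 105.5%, 95.3% and 98.6% in replicates 3, 4 and 5, a mean of 99.8% ± 5.21 (SD, n = 3). For single genes this share had a median of 99.1% and ran from 43.0% to 183.5%. It lay between 80% and 120% in 118 genes, below 80% in 11 and above 120% in 21.

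For comparison, the same rule was applied with a wild-type recovery mean at least 0.5 above pre, and again with one at least 0.5 below pre, and 150 genes were kept each time. The sets also differed in their mutant rise from pre to dark. Its median log2 change was 2.96 in the still raised set (142 called higher) and 1.62 in the set below its start (107 called). Of all genes tested, 26.9% were called higher there. In the set still raised in wild type, the mutant log2 change from pre to recovery had a median of 0.83, and it was above 0.5 in 96 genes and below -0.5 in 3. In the set below its start in wild type, the median was -0.40, and 67 genes were below -0.5 and 10 above 0.5. Few single genes passed the test, with 0 called higher in the first set and 5 (3.33%) called lower in the second. Of all genes tested, 0.174% were called higher and 0.461% lower. No test of the difference between sets was made. All of these values share the mutant pre and recovery libraries. The sets were split on the wild-type pre and recovery libraries, and same-numbered pools of the 2 genotypes shared deviations at those stages. The mutant values are therefore not wholly independent of the split.

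**Figure D3:**
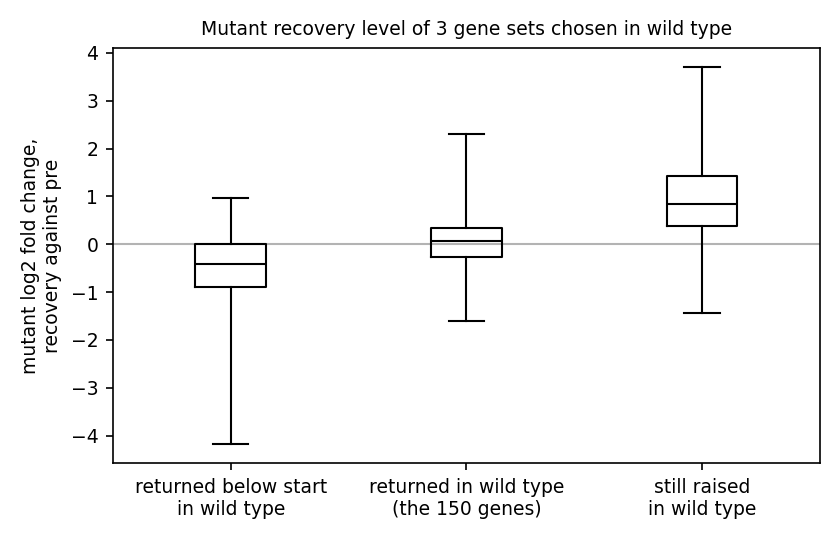
Mutant log2 fold change from pre to recovery (vertical axis) in 3 sets of 150 genes chosen by their wild-type recovery level (horizontal axis). Boxes span the quartiles with the median as a line, and whiskers reach the lowest and highest gene. Medians are -0.40, 0.06 and 0.83 from left to right.

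Measured against the 24hr leaf instead of the pre leaf, 3 of the 150 genes, or 2%, differed at recovery in the mutant, against 2.63% of all genes tested. The 3 genes were named after their values were seen. BraA02000212 was lower, with 12.8, 16.7 and 11.7 CPM at 24hr and 2.86, 2.95 and 3.76 CPM at recovery in replicates 3, 4 and 5. The groups did not overlap, and its log2 change was -2.03 (SE 0.38, edgeR quasi-likelihood, adjusted p 0.0152). BraA08001833 was also lower, with 8.68, 23.7 and 16.9 CPM at 24hr and 5.88, 4.39 and 6.78 CPM at recovery. Its log2 change was -1.48 (SE 0.36, adjusted p 0.0440). BraA03001349 was higher, with 0.885, 1.96 and 1.20 CPM at 24hr and 9.16, 6.34 and 15.8 CPM at recovery. Its log2 change was 3.02 (SE 0.68, adjusted p 0.0337), from 10, 19 and 17 counts at 24hr. With plant pool as a block 5 of the 150 and 802 of all genes were called. Without mutant replicate 5 there were 0 of the 150 and 2 of all genes, so the count over all genes moved as well.

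Over 24 h in the uncovered leaf no difference was called. In the mutant, 0 of the 150 genes were called at 24hr against pre by edgeR's quasi-likelihood test, as were 0% of all genes tested, and the DESeq2 test called 0 as well. At an unadjusted p under 0.05 there were 5 of the 150 genes and 661 of all genes. The fitted log2 change had a median of 0.12, beside 0.03 over all genes tested, and ran from -1.94 to 1.95. In the wild type, where the pre libraries had been used by the rule, the difference on the log2(CPM + 1) scale had a median of 0.05 and was under 0.5 in size in 135 genes. The mean of the 150 genes at 24hr was 2.54, 2.98, 2.91 and 3.38 in wild-type replicates 3 to 6. None of these libraries was used to choose the genes, and all 4 stood more than 2 log2 units below the lowest dark library.

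Mutant and wild type could be tested against each other at 24hr, the only stage at which neither had been used by the rule. Of the 150 genes 0 were called, against 0.0332% of all genes tested higher and 0.0166% lower in the mutant. The DESeq2 test called 0 of the 150 and 126 of all genes. An unadjusted p under 0.05 was found for 9 of the 150 and for 1577 of the 24072 genes tested. The fitted log2 difference had a median of 0.11, beside 0.02 over all genes tested, and was above 0 in 88 genes. The split depended on the scaling of the libraries. With CPM on library totals the mutant mean was the higher in 113 of the 150 genes, but on that scale the median of all genes was also shifted, by 0.12, and 67.6% of all genes were higher. With TMM scaling, which removes that shift, 87 of the 150 genes were higher in the mutant, against 50.6% of all genes. Replicates 3 and 5 of both genotypes carried the same letter in the sample descriptions, which may be a plate row. Within these letters, the mean of the 150 genes differed by 0.21 and 0.30 with TMM scaling, the mutant being higher. Replicate 4, whose letters differed, gave 0.21 in the same direction. Over all 24hr libraries the difference was 0.13. These include wild-type replicate 6, which has no mutant pool of its number. Its mean with TMM scaling was 3.35, against 2.68 to 3.10 in the other wild-type pools.

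The same genes were compared between genotypes at the other stages only as values, since those wild-type libraries had chosen them. On the log2(CPM + 1) scale the median difference, mutant minus wild type, was 0.06 for pre, -0.05 for dark and -0.01 for recovery. It exceeded 1 in size in 5, 4 and 6 of the 150 genes. The farthest gene at dark differed by -2.175.

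Pools with the same number in the 2 genotypes shared part of their deviations at pre, 24hr and recovery. Among replicates 3 to 5, the number with the highest value was the same in wild type and mutant for 82 of the 150 pre values (54.7%) and 80 of the recovery values (53.3%), with TMM scaling. It was the same for 72 genes at 24hr (48.0%) and for 55 in darkness (36.7%). Over all genes tested the shares were 46.0% (pre), 44.4% (recovery), 52.3% (24hr) and 39.6% (dark). Across the 150 genes, deviations from the stage mean at pre correlated between wild-type and mutant pools with r = 0.268, 0.506 and 0.744 for numbers 3, 4 and 5, where all genes tested gave 0.382, 0.271 and 0.358. At 24hr r was 0.416, 0.334 and 0.499, where all genes gave 0.546, 0.446 and 0.402. At recovery r was 0.303, 0.672 and 0.346, where all genes gave 0.231, 0.555 and 0.168. The 150 genes thus had the higher r for numbers 4 and 5 at pre, for number 5 at 24hr and for all 3 numbers at recovery, and the lower r for the rest. At dark, the stage whose wild-type spread the rule had limited, r for the 3 numbers lay between -0.134 and 0.143. These correlations are descriptions across genes that share libraries. At pre and recovery the wild-type values had also chosen the 150 genes. Their r and shares at those stages therefore cannot be read against those of all genes. The correlations also mean that mutant libraries were not wholly separate from the wild-type libraries that chose the genes.

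In 10 of the 150 genes, replicate 5 at pre held at least 2 times the next highest library of its group in both genotypes, against 0.976% of all genes tested. In 7 genes the same held for replicate 4 at recovery, against 2.15% of all genes tested. No other replicate number and stage had a gene with this pattern among the 150. The rule had used the wild-type pre and recovery libraries in these counts. Its effect on the shares, beside those of all genes, was not worked out. The pair of genes shown next was chosen after their values were seen. BraA01000206 had 12.8, 4.71, 97.2 and 3.12 CPM at pre in wild-type replicates 3 to 6 and 30.2, 11.1 and 81.8 CPM in mutant replicates 3 to 5. At recovery it had 2.67, 108.3, 12.3 and 8.57 CPM in wild type and 7.31, 81.0 and 25.1 CPM in the mutant. Replicate 5 was thus high at pre and replicate 4 at recovery, near the dark levels of 73.6 to 121.5 CPM in wild type, in plants of either genotype. BraA03002224 had the same highs. Replicate 5 at pre had 94.8 CPM in the wild type and 65.1 CPM in the mutant. Replicate 4 at recovery had 87.1 and 90.4 CPM. Mutant replicate 5 at recovery had 48.1 CPM, so this gene was not among the 7. The labels do not say whether pools of the same number were grown or handled together, and the source of the pattern was not tested.

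**Figure D4:**
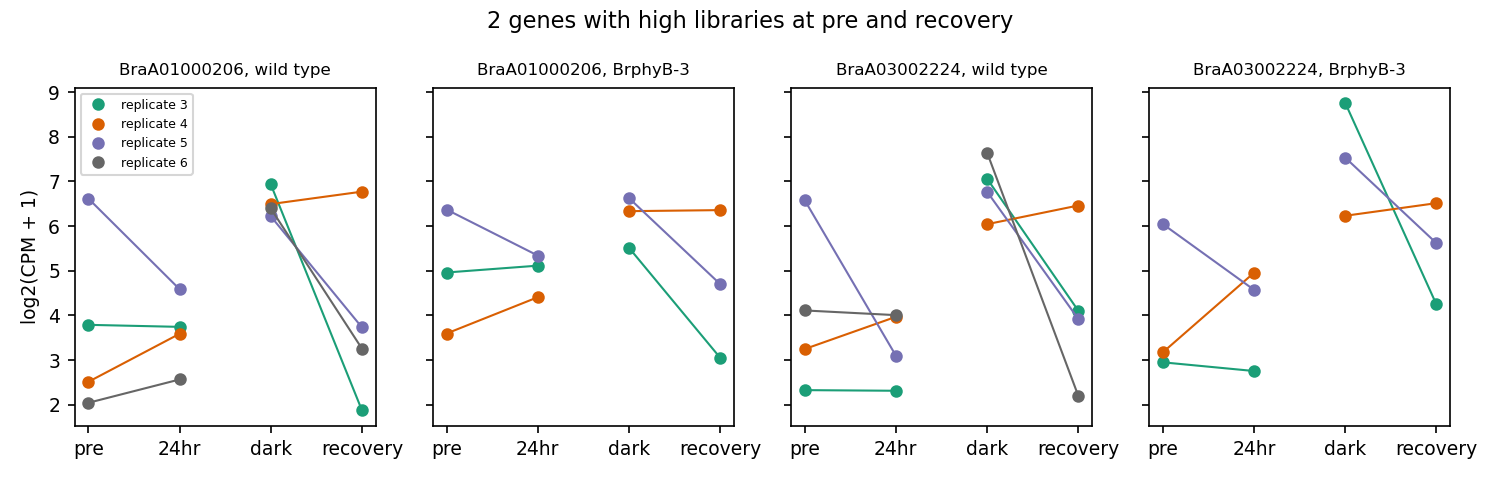
log2(CPM + 1) of BraA01000206 and BraA03002224 (vertical axis) at each stage (horizontal axis) in wild type and BrphyB-3. Points are libraries coloured by replicate number, and lines join samples of 1 leaf of a pool. Replicate 5 is highest at pre and replicate 4 at recovery in all 4 panels.

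The 150 genes were spread over the ID series. They fell in all 10 series A01 to A10, from 6 genes in A04 to 23 in A09, and 1 lay on a scaffold ID. A09 held 15.3% of the 150 genes and 14.4% of the 14173 genes that met the limits, and A04 held 4.00% and 6.31%. Among the 150 genes 1 pair had consecutive IDs, and the number to be had by chance was not worked out.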

How the data were processed

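Poly(A) RNA from leaf punches was sequenced as single reads, per the labels' protocols. The submitters' processing notes name bcl2fastq 2.17.1.14, Trimmomatic 0.36, Bowtie2 and HTSeq. The deposited values are raw counts per gene ID and library. The genome build, annotation and strand setting are not given in the sources used here, so values of genes with a near-identical copy, or that overlap another gene, are uncertain. The table held 48826 IDs, 12503 of them at 0 counts everywhere.

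The rule was applied to counts as CPM of the library total, with a pseudocount of 1. Genes and lists were chosen with earlier results of these data known. Tests used R 4.3.3 and edgeR 4.0.16 (filterByExpr, TMM scaling, quasi-likelihood) on the 16 libraries outside the rule. The filter kept 24072 IDs with 99.9% of the counts. Adjusted p-values were by Benjamini-Hochberg, and the SE is the log2 change over the square root of F, so it is approximate. The fitting code was tested on simulated data. Named genes were the 2 largest mutant rises from pre to dark and the 2 largest further falls from dark to recovery, among genes called, with at least 10 CPM in mutant dark and no overlap between libraries. DESeq2 1.42.0, other scalings, filters, fits, rules and left-out replicates were alternatives. The fit on unscaled library totals was chosen after seeing the data. The gene lists planned by name were not run, since no ID had a name.

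Per the labels' protocols, 1 pool of plants gave all mutant libraries of a number. Their deviations from group means had a median correlation of 0.157, against -0.0741 between pools. Between genotypes at 24hr, same-numbered libraries correlated at 0.289 to 0.501. The fit reported had no term for pool or replicate number. Numbers were treated as pairs there only in the alternative fit with a replicate block and in the differences given by replicate. That pairing came from the data and not from the labels. The lowest chi-square per gene between libraries of a group was 9.87, where counting noise gives 1, so no library was taken for a repeat.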

Additional observations from a re-analysis of the deposited data

Results flagged for a closer look

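In groups of 4 wild-type libraries, a library was marked when its gap to the nearest other passed the critical share of the range (Dixon's test). Here 10 of 56 groups were marked, in 8 genes. Chance marks about 1 in 20 groups, but the count cannot be read against that rate, since 9 of the marks lie in wild-type pre or recovery libraries that chose the genes and 6 of the genes were named after their values were seen. No cause was tested for any of them.

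At pre, wild-type replicate 5 was the high library in 5 genes. BraA03005800 had 10.4 CPM there against at most 1.45 in the others, BraA04002958 20.7 against at most 12.1, BraA01000206 97.2 against at most 12.8, BraA03005720 17.7 against at most 6.89 and BraA03002224 94.8 against at most 16.3. At recovery, wild-type replicate 4 was high in BraA01000206, with 108.3 CPM against at most 12.3, and in BraA03002224, with 87.1 CPM against at most 16.2. At 24hr, wild-type replicate 6 was high in BraA09000389, with 4.51 CPM against at most 0.907. Wild-type pre replicate 3, the shallowest pre library, was low in BraA02000212, with 1.34 CPM from 7 counts against at least 7.07 CPM. BraA08001833 at recovery had 8.57 CPM in wild-type replicate 6 and 9.20 to 9.30 CPM in the others, a small gap within a narrow range.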

How the results depend on the processing

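The counts of the 150 genes that rose in mutant darkness and fell at recovery stayed within 1.5 times of their values under all alternatives run. Over fits that each left out 1 replicate they ranged from 94.0% to 96.7% and from 88.7% to 97.3% of the genes, the lowest without mutant replicate 5. The share that differed at recovery against 24hr, 2% with all libraries, was 4% with all 28 libraries, 0% with only the groups compared, 3.33% with the replicate block, 6.67% with the DESeq2 Wald test and 4% for a list of 75 genes. The calls over all genes, 633 in the fit reported, moved with these fits to 918, 49, 802 and 1965, in the same order and without the shorter list. Without 1 replicate it ranged from 0% to 2.67%. At recovery against pre, where 0 of the 150 were called, DESeq2 gave 0.667%, and leaving out 1 replicate gave 0% to 0.667%, the 1 call coming without wild-type replicate 3 at 24hr. For mutant against wild type at 24hr, a list chosen without the cap on the dark level gave 0.667%. The replicate block moved the count that fell from dark to recovery from 146 to 145. It moved the count that differed at recovery against 24hr from 3 to 5, and left the other counts of the 150 genes as they were. Lists of other lengths, ranked on the wild-type rise, moved the median mutant rise to 3.19 with 75 genes and 2.55 with 300. It was 3.05 without the cap. The share of the mutant rise reversed was 106.3% with 24hr as the start. The rule kept 97, 98 and 99 of its 150 genes without wild-type replicates 3, 4 and 5. Over the fits that left out 1 wild-type pool, these counts ranged from 97 to 105. The causes were not tested. For genes with few counts at pre, fitted changes depend on the prior count.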
